A study of Sus scrofa with 12 samples.

Results

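Glutamine, asparagine and aspartate are amino acids that skeletal muscle makes and exchanges, and 6 genes of their metabolism were examined here in the open chromatin of pig muscle. GLUL encodes glutamine synthetase, ASNS asparagine synthetase, GOT1 and GOT2 the cytosolic and the mitochondrial aspartate aminotransferase, SLC38A2 the amino acid transporter SNAT2, and ATF4 the transcription factor of the amino acid response. Open regions belonged to a gene when their midpoint lay in its body or within 25 kb of it, a rule that uses positions and no measured value. It took 65 regions of 140081 in all, with 15 each for GLUL and SLC38A2, 10 for ATF4, 9 for GOT2 and 8 each for ASNS and GOT1. ASNS, GLUL and GOT1 were among the candidate genes that the study picked on these animals, so the direction of their values is not independent evidence.

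ATAC-seq, in which a transposase cuts accessible DNA and the cut fragments are sequenced, was performed on the longissimus dorsi, the long muscle of the back. The animals were male pigs of 180 days kept on the same feeding regime and fasted overnight before slaughter, 3 Duroc and 3 Luchuan. Duroc is a lean, fast-growing commercial breed and Luchuan a small, fat indigenous breed of southern China. No genetic modification and no drug treatment are stated for either group, and the groups are compared by breed. Anything else that differed between the groups of animals or libraries cannot be told apart from breed. RNA-seq libraries of the same muscle were not analysed here.

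The deposited counts name the breed and no animal, so each was taken as the sum over 3 boars. There was therefore 1 value per breed, with no spread between boars and no test of any difference. An interval printed with a value is a 95% Clopper-Pearson interval that covers counting error only, and since reads carried no molecular identifier and can be copies of one molecule, the true error is larger. In whole muscle, a smaller number of cells with an open region and a less open region in each cell cannot be told apart. The regions held 20760078 Duroc and 13746528 Luchuan reads, with a median of 61 and 38 reads per region. Luchuan counts were multiplied by 1.48, which set the median ratio of the 68776 regions called in both breeds to 0 on the log2 scale. All log2 ratios are Luchuan over Duroc after this scaling, so a value above 0 means more scaled reads in Luchuan.

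In muscle, glutamine synthetase joins ammonia to glutamate and releases glutamine to the blood, and its gene is a known target of glucocorticoids. Asparagine synthetase transfers the amide group of glutamine to aspartate. The aspartate aminotransferases interconvert aspartate and glutamate with their keto acids and drive the malate-aspartate shuttle, which carries reducing equivalents into mitochondria. When amino acids are scarce, the kinase GCN2 favours translation of ATF4, which then activates ASNS, SLC38A2 and other genes of amino acid supply.

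The muscle label was checked against marker genes, with reads summed over each gene body and 2 kb on both sides. All 8 genes of skeletal muscle fibres had open regions, and their median of 7083 reads exceeded 97.0% of protein-coding genes, whose median was 979. The log2 ratios of these 8 genes ran from −0.77 to 0.042 with a median of −0.33, and 2 of 8 were above 0. Open regions were found at 3 of 5 adipocyte, 4 of 5 endothelial, 3 of 4 fibroblast, 5 of 5 leukocyte and 2 of 2 satellite cell genes, and the adipocyte genes FABP4 and CIDEC, the endothelial CDH5 and the fibroblast LUM had none. Median log2 ratios were −0.14 for adipocyte, 0.31 for endothelial, −0.096 for fibroblast, 0.14 for leukocyte and 0.15 for satellite cell genes that had a region. In the same order, 1 of 3, 2 of 4, 1 of 3, 3 of 5 and 1 of 2 genes were above 0. With the reads of each group summed, the log2 ratios were 0.014, 0.040, −0.089, 0.0064 and −0.19, so these groups gave no common direction. The part of cell mixture in the values below was not tested.

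Around the 6 genes, the breeds were close in accessibility, and the larger differences sat at single regions. Summed over 25 kb, GOT1, GLUL and SLC38A2 had ratios above 0 and GOT2 and ATF4 ratios below 0, while ASNS was near 0. No gene reached a fold of 1.5 in either direction. Over the 16249 protein-coding genes with at least 200 reads within 25 kb, 1.58% were 1.5-fold or more higher in Luchuan and 1.83% in Duroc, so 0 of 6 is not a result about these genes. With the counts scaled by sequenced clean reads instead, every log2 ratio falls by 0.20, the median of all regions becomes −0.21, and GLUL, SLC38A2 and ASNS, the last at −0.19, pass to the other side of 0.

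Of the 65 regions, 64 had at least 20 reads over both breeds and were compared at a fold of 2. In Luchuan 3 regions were 2-fold or more higher, 4.69% of 64, against 6.71% of all 137697 such regions. In Duroc 2 regions were 2-fold or more higher, 3.13% of 64, against 5.64% of all. Both member shares lay below those of all regions, but the regions compared differ in read depth. Of the 64, 17 held 500 reads or more and 7 held 20 to 49, beside 20276 and 35444 of the 137697. At 500 reads or more, 0.18% of all regions were 2-fold or more higher in Luchuan and 0.81% in Duroc. At 20 to 49 reads these shares were 18.8% and 6.40%. Shares at matched depth were not compared. Neither an excess nor a lack of different regions at these genes can therefore be read from the shares. The counting interval lay above 0 in 10 regions, below 0 in 12 and included 0 in 43. The same counts over all regions were not made, and intervals narrow as reads rise, so these are not a result about the genes. The median log2 ratio of the 65 regions was 0.018, beside −0.016 over all regions with at least 20 reads. Among the 65 regions, 37 had been called as open in both breeds, 20 in Duroc alone and 8 in Luchuan alone, and over all regions these classes made up 49.1%, 31.8% and 19.1%.

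**Figure D1:**
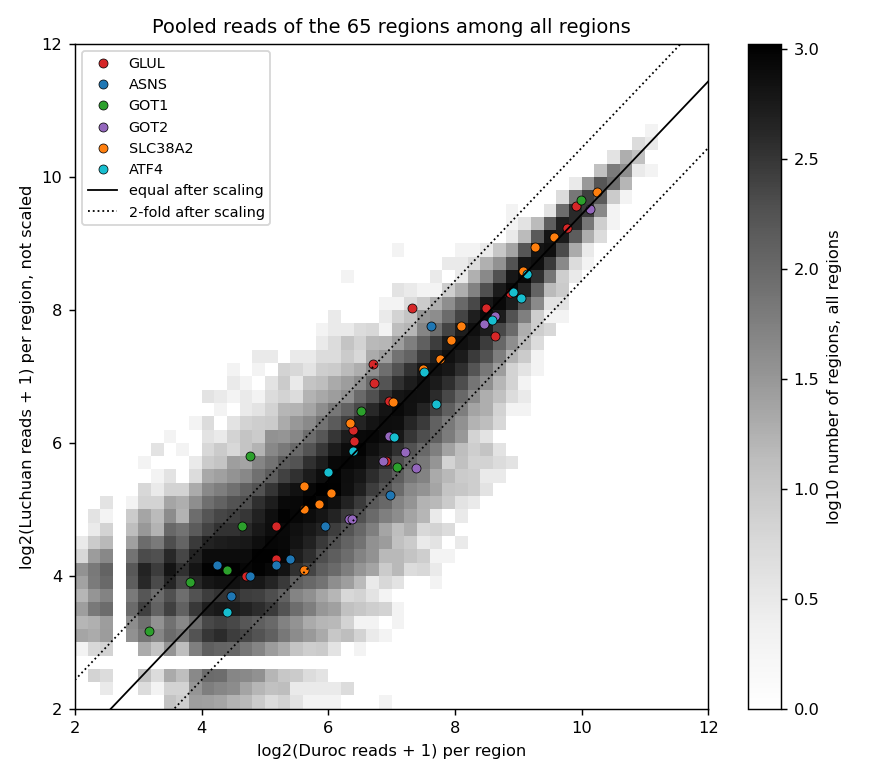
Reads per region in Luchuan (y axis, log2 of unscaled reads plus 1) against Duroc (x axis, log2 of reads plus 1), both axes starting at 2, with the 65 regions as points coloured by gene over the density of all regions in grey. Solid and dotted lines mark equal and 2-fold different reads after scaling, and 5 points lie outside the dotted lines, 3 on the Luchuan side and 2 on the Duroc side.

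GLUL lies at chr9:123751551-123762575 in the Sscrofa11.1 assembly, the build of all coordinates here, which are counted from 1. Per kb of open region it had the densest reads of the 4 enzyme genes, 594 in Duroc and 665 scaled reads in Luchuan. Its 15 regions held 3926 Duroc and 2974 Luchuan reads, a log2 ratio of 0.16 (0.094 to 0.23). The gene table used here gives no strand, so both ends of a gene are described by their coordinate. Neighbouring regions beside the lower end stood out on the Luchuan side, while the rest of the locus did not. This set of 3 regions was chosen after the values had been seen.

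The region closest to the lower end, chr9:123750802-123751265, held 159 Duroc and 259 Luchuan reads, a log2 ratio of 1.27 (0.98 to 1.56) and a fold of 2.41. The next one, chr9:123749842-123750174, held 104 and 118 reads and a log2 ratio of 0.75 (0.35 to 1.14). The last, chr9:123748868-123749241, held 103 and 145 reads, a log2 ratio of 1.06 (0.68 to 1.44) and a fold of 2.08. Each of the 3 had more reads in Luchuan even before scaling, although the Luchuan total was the smaller one. All had been called open in both breeds, a class in which 1.05% of regions were 2-fold or more higher in Luchuan. With clean reads as the scale, the outer and the inner of the 2-fold regions had log2 ratios of 0.86 and 1.07, so that the outer one was under 2-fold. Summed over the 2.40 kb they span, they held 366 Duroc and 522 Luchuan reads, a log2 ratio of 1.08 (0.88 to 1.27). The other 12 regions of GLUL held 3560 and 2452 reads, and their summed log2 ratio was 0.026 (−0.049 to 0.10).

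At the upper end of GLUL lay its region with the most reads, chr9:123761712-123762923, with 961 Duroc and 752 Luchuan reads and a log2 ratio of 0.21 (0.07 to 0.35). This region also overlaps LOC110255568, which begins within GLUL, and reads there cannot be divided between the genes. A pair of smaller regions next to it, inside GLUL, had log2 ratios of 0.17 and 0.24 with intervals that included 0. On the lower side, 3 regions between 10.7 and 19.5 kb from the gene had log2 ratios of −0.059, 0.018 and 0.10. The region at chr9:123735819-123736730 is the densest of them, at 959 Duroc reads per kb and 971 scaled Luchuan reads per kb. At this scale the breeds did not differ there beyond counting error. On the upper side, regions fall in RGSL1 and TEDDM1, and the one at chr9:123771649-123772229 had 396 Duroc and 194 Luchuan reads, a log2 ratio of −0.46 (−0.72 to −0.21). Farther along, 3 adjoining regions called in Duroc alone had log2 ratios of −0.38 (−1.30 to 0.46), −0.62 (−1.13 to −0.15) and −0.15 (−1.20 to 0.81). That class had a median of −0.38 over all its regions with at least 20 reads. The other regions in RGSL1, chr9:123767479-123767726 and chr9:123772716-123772867, had 0.36 (−0.12 to 0.83) and 0.14 (−0.66 to 0.91). Within 25 kb, the locus thus held both directions, with the Luchuan side at the lower end of GLUL. Within RGSL1, values lay on both sides of 0, and every interval that excluded 0 lay below it.

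**Figure D2:**
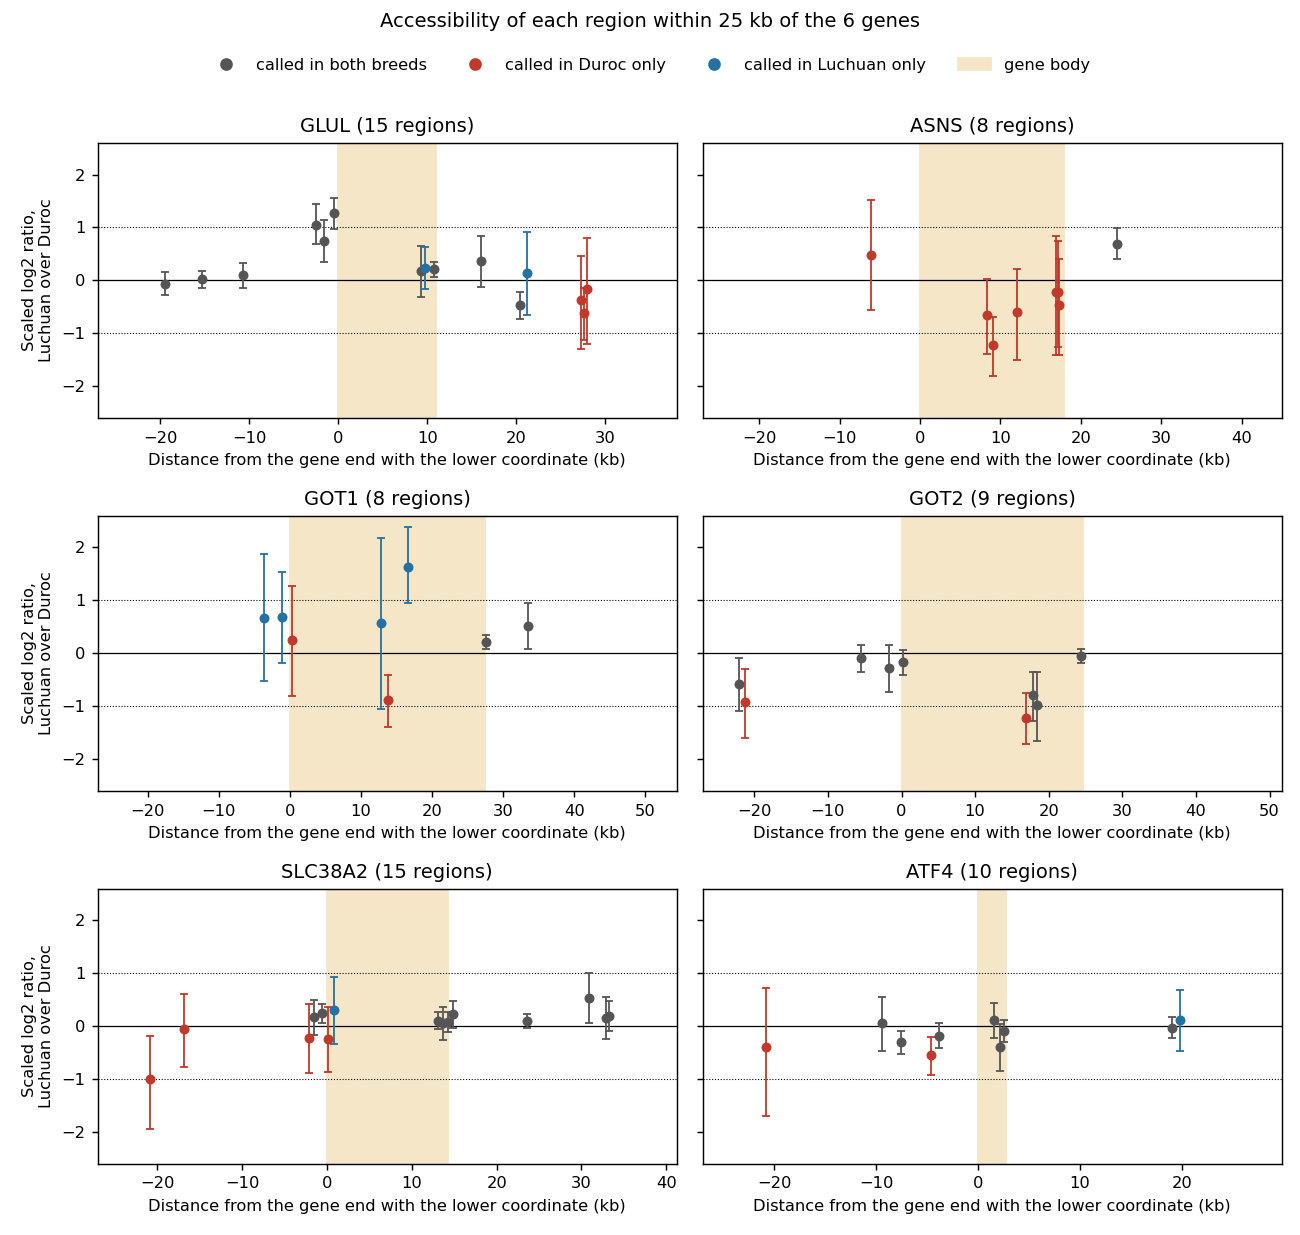
Scaled log2 ratio of each of the 65 regions (y axis, Luchuan over Duroc) against its distance in kb from the gene end with the lower coordinate (x axis), 1 panel per gene, with 95% counting intervals, the gene body shaded and colour giving the breeds in which the region was called. The 3 GLUL regions at the lower end sit between 0.75 and 1.27, the 3 regions inside GOT2 between −1.22 and −0.80, and all 9 GOT2 regions lie below 0.

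ASNS, at chr9:77318341-77336290, had the least open chromatin of the 6 genes. Its 8 regions held 523 Duroc and 356 Luchuan reads, or 217 Duroc and 218 scaled Luchuan reads per kb, where the other 5 genes had 462 to 673 Duroc reads per kb. No region lay within 2 kb of the lower end. At the upper end, 3 short regions held 21, 26 and 35 Duroc reads against 12, 15 and 17 Luchuan reads. The largest of these totals, 52 reads, was above the reads of the strongest end region, not scaled for length, in 30.4% of the 19533 protein-coding genes. The upper end of ASNS thus had few reads in both breeds, and its 3 regions were called open in Duroc alone. Together the 3 end regions had a log2 ratio of −0.33 (−0.90 to 0.21).

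The summed log2 ratio of ASNS, 0.0096 (−0.19 to 0.21), joins opposite values. Inside the gene, chr9:77327170-77327628 held 125 Duroc and 36 Luchuan reads, a log2 ratio of −1.22 (−1.81 to −0.69) and a fold of 2.33. Its neighbours inside the gene had 61 and 41 Duroc reads and 26 and 18 Luchuan reads, with log2 ratios of −0.65 and −0.60 whose intervals included 0. Together the 3 inside regions had 227 and 80 reads and a log2 ratio of −0.93 (−1.33 to −0.57). They were called in Duroc alone, as were 7 of the 8 ASNS regions, and the median log2 ratio of that class over the genome was −0.38, with 15.3% of its regions 2-fold or more higher in Duroc. The single region called in both breeds, chr9:77342405-77343152, lies 6.49 kb beyond the upper end and held 196 Duroc and 215 Luchuan reads, a log2 ratio of 0.70 (0.41 to 0.98). It held 411 of the 879 reads of the locus, and without it the summed ratio of ASNS was −0.65.

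GOT1 lies at chr14:110608422-110635825, and 76.1% of its reads fell in a single region over its upper end. That region, chr14:110635507-110636590, had 1020 Duroc and 803 Luchuan reads, a log2 ratio of 0.22 (0.08 to 0.35), and at 941 Duroc reads per kb it was denser than 99.5% of all regions, counted over both breeds. The 8 regions of the gene together held 1337 and 1059 reads, a log2 ratio of 0.23 (0.11 to 0.35). The other regions within 1 Mb of GOT1 had a median log2 ratio of 0.17, and with that median as the scale the GOT1 ratio was 0.055.

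Inside GOT1, neighbouring regions pointed in opposite directions. At chr14:110624824-110625116 there were 26 Duroc and 55 Luchuan reads, a log2 ratio of 1.63 (0.95 to 2.38) and a fold of 3.10, the largest fold among the 65 regions. At chr14:110621931-110622504 there were 135 Duroc and 49 Luchuan reads, a log2 ratio of −0.89 (−1.40 to −0.42). The first was called in Luchuan alone, a class with a median of 0.75 and 33.8% of regions 2-fold or more higher in Luchuan. The second was called in Duroc alone, a class with a median of −0.38 and 15.3% 2-fold or more higher in Duroc. Each was called only in the breed where it is high, so their opposite directions are not a result about GOT1. The third inside region had 8 reads in each breed and was below the minimum of 20, and the inside of GOT1 summed to −0.027 (−0.39 to 0.32). At the lower end, regions with 24 and 20 Duroc reads and 26 and 16 Luchuan reads were open only weakly. Beyond the upper end, chr14:110641705-110642013 had 91 and 88 reads and a log2 ratio of 0.52 (0.08 to 0.95).

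GOT2, at chr6:20407203-20431849, was the gene with the lowest summed ratio, and every one of its 9 regions lay below 0. It held 2573 Duroc and 1470 Luchuan reads, a log2 ratio of −0.24 (−0.34 to −0.15), lower than in all but 13.3% of genes. The other regions within 1 Mb had a median of −0.033. The regions at the ends of the gene were near 0. At the upper end, chr6:20431006-20432270 held 1116 and 730 reads and a log2 ratio of −0.048 (−0.19 to 0.09), and at the lower end, chr6:20407109-20407735 held 396 and 238 reads and −0.17 (−0.41 to 0.06).

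Low values were found at 3 regions that follow each other inside GOT2, 6.19 to 7.74 kb from the upper end, and on its lower flank. The one at chr6:20423813-20424403 had 166 Duroc and 48 Luchuan reads, a log2 ratio of −1.22 (−1.72 to −0.75) and a fold of 2.32. It was called in Duroc alone, a class with 15.3% of regions 2-fold or more higher in Duroc. The next, chr6:20424906-20425218, had 147 and 57 reads and a log2 ratio of −0.80 (−1.27 to −0.35), and chr6:20425531-20425786 had 82 and 28 reads and −0.97 (−1.66 to −0.35). The last 2 had been called in both breeds. Summed, the inside of GOT2 had 395 Duroc and 133 Luchuan reads, a log2 ratio of −1.0 (−1.30 to −0.72), beside −0.094 (−0.21 to 0.019) for its end regions. Regions on the lower flank lie nearer to SLC38A7, another amino acid transporter gene, and had log2 ratios of −0.57 (−1.08 to −0.10), −0.92 (−1.61 to −0.29) and −0.094 (−0.34 to 0.15).

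**Figure D3:**
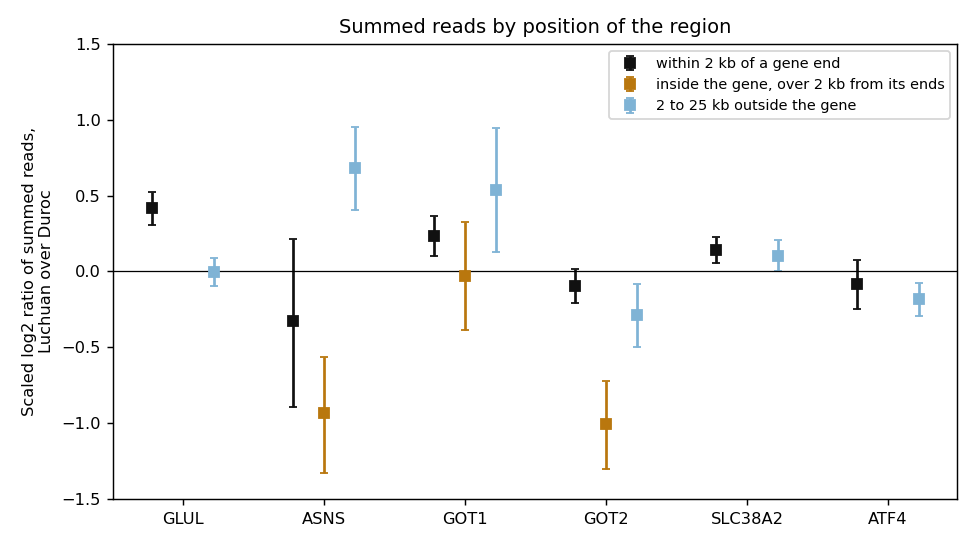
Scaled log2 ratio of summed reads (y axis, Luchuan over Duroc) for the regions of each gene (x axis) split by position, with 95% counting intervals. The insides of GOT2, at −1.0, and of ASNS, at −0.93, are the lowest points, the ends of GLUL, at 0.42, are the highest of the end regions, and GLUL, SLC38A2 and ATF4 have no inside regions.

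SLC38A2, at chr5:77113491-77127715, carries small neutral amino acids such as glutamine and alanine into cells together with sodium. Its 15 regions held 4506 Duroc and 3326 Luchuan reads, or 608 and 663 scaled reads per kb, and a log2 ratio of 0.13 (0.061 to 0.19). Its ends were open in both breeds, with 8 regions that held 2692 and 2007 reads and a summed log2 ratio of 0.14 (0.056 to 0.22). At the lower end, chr5:77112254-77113477 had 615 and 491 reads and a log2 ratio of 0.24 (0.06 to 0.41). At the upper end, chr5:77126074-77126985 had 757 and 549 reads and 0.10 (−0.06 to 0.26). The region with the most reads, chr5:77136338-77137774, lies 9.34 kb beyond the upper end and had 1209 Duroc and 877 Luchuan reads, a log2 ratio of 0.10 (−0.03 to 0.23).

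No region of SLC38A2 was 2-fold different, beside 6.71% of all regions higher in Luchuan and 5.64% in Duroc. The counting interval included 0 in 12 of 15. Neither count is a result about the gene. The lowest value was at chr5:77092569-77092814, with 48 Duroc and 16 Luchuan reads and a log2 ratio of −0.99 (−1.94 to −0.18), just short of 2-fold. The highest was at chr5:77144190-77144485, with 80 and 78 reads and 0.53 (0.06 to 1.0). The summed log2 ratio of SLC38A2 was above that of 77.2% of genes, that of GLUL above 82.2% and that of GOT1 above 88.5%. The intervals of these 3 ratios overlap, so their order is within counting error.

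ATF4, at chr5:8742964-8745752, is a short gene between RPS19BP1 and MIEF1, and its 25 kb hold the ends of both neighbours. Its 10 regions had 2636 Duroc and 1605 Luchuan reads, a log2 ratio of −0.15 (−0.24 to −0.062). Over ATF4 itself, 3 regions held 793 and 506 reads and summed to −0.084 (−0.25 to 0.078). The densest of them, chr5:8745205-8745731, had 481 and 306 reads, or 913 Duroc and 858 scaled Luchuan reads per kb, and a log2 ratio of −0.088 (−0.30 to 0.12). At this scale the breeds did not differ at ATF4 beyond counting error. The clean-read scale, which lowers every ratio by 0.20, puts the interval of this sum below 0.

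Both ATF4 regions whose interval lay below 0 belong to the RPS19BP1 gene body. At chr5:8735072-8735690 there were 526 Duroc and 288 Luchuan reads, a log2 ratio of −0.30 (−0.52 to −0.10). At chr5:8738154-8738457 there were 206 and 95 reads and a log2 ratio of −0.55 (−0.92 to −0.20). The other regions within 1 Mb of ATF4 had a median of −0.088. Of the 10 ATF4 regions, 8 included 0 in their interval and none was 2-fold different. Beside 6.71% of all regions 2-fold or more higher in Luchuan and 5.64% in Duroc, neither count is a result about the gene.

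The other genes of these pathways were read from a list of 69 genes, of which 65 had enough reads. None of the 65 was 1.5-fold higher in either breed, which beside 1.58% and 1.83% of all genes is not a result about the list. Their summed log2 ratios ran from −0.37 to 0.55 with a median of 0.0032, and 33 of 65 were above 0. Over all genes the median was −0.023, and 7333 of 16249 were above 0. By group, the medians were 0.038 for 21 genes of glutamine and glutamate, 0.029 for 6 genes of the malate-aspartate shuttle, 0.084 for 11 transporters and 0.063 for 16 genes of the ATF4 branch. With clean reads as the scale each of these medians lies below 0. The 11 genes listed under asparagine and aspartate, QARS1 for glutaminyl-tRNA among them, had a median of −0.13. Of these, 2 of 11 were above 0, a count too small to set against the share over all genes.

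Since no gene on the list passed 1.5-fold, the ones named next were chosen after their values were seen, for lying at the extremes. PSAT1, the transaminase of serine synthesis that consumes glutamate, had the highest log2 ratio, 0.55 (0.38 to 0.72), and BCAT1, the cytosolic branched-chain aminotransferase, followed with 0.44 (0.22 to 0.67). ASL, which splits argininosuccinate into arginine and fumarate, was lowest with −0.37 (−0.46 to −0.28). These ranks hold for 25 kb only. Over the gene with 2 kb on both sides, ASL was at −0.15, while ASRGL1 was lowest at −0.64 and SLC7A11 highest at 0.69. BCAT2, the mitochondrial branched-chain aminotransferase that is abundant in muscle, was at −0.32 (−0.41 to −0.23). AMPD1, the muscle AMP deaminase of the purine nucleotide cycle, was at −0.27 (−0.33 to −0.21).

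**Figure D4:**
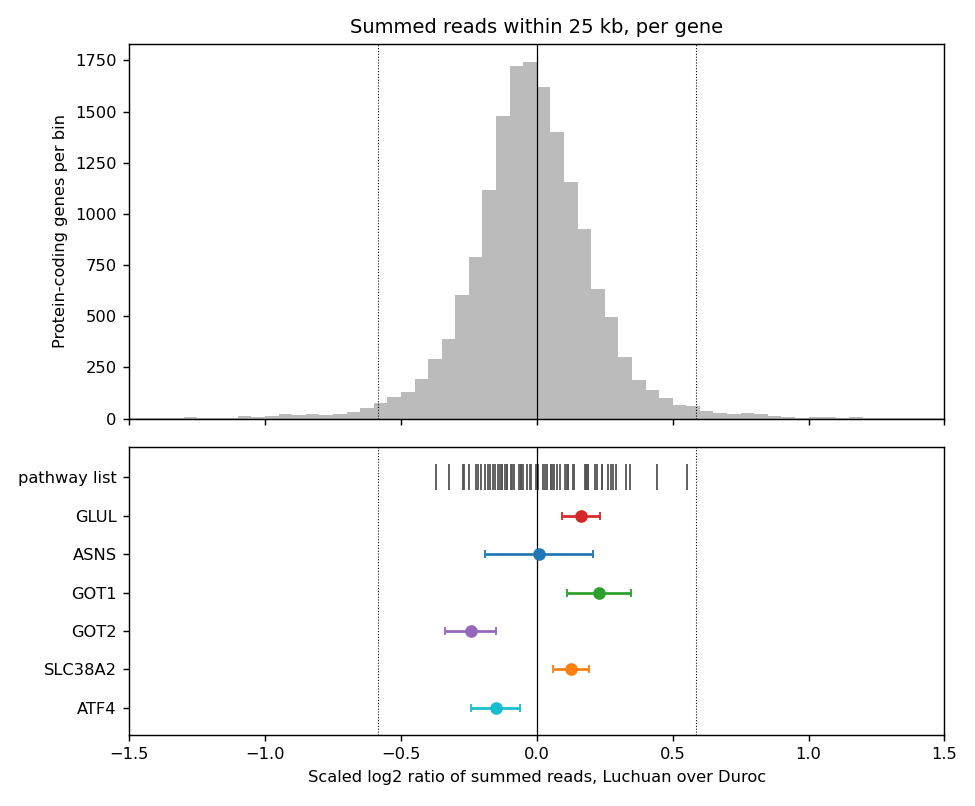
Top, number of protein-coding genes (y axis) by scaled log2 ratio of reads summed within 25 kb (x axis, Luchuan over Duroc, drawn from −1.5 to 1.5). Bottom, the 65 genes of the pathway list as ticks and the 6 genes as points with 95% counting intervals, from −0.24 for GOT2 to 0.23 for GOT1, none beyond the dotted lines at 1.5-fold, and with GLUL, SLC38A2 and ASNS below 0 when clean reads set the scale.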

How the data were processed

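ATAC-seq of longissimus dorsi from 3 Duroc and 3 Luchuan boars was used. Reads had been filtered by Trimmomatic (version 0.36) and mapped with Bowtie2 to Sscrofa11.1, and MACS2 had called the peaks. What the authors deposited are unscaled counts in whole numbers, with a single value for each interval in each breed. The tool that counted and pooled the reads, duplicate removal and the transposase shift are not given in the sources used here, and a pooled count can be carried by a single boar. The deposited rescaled log2 fold change, average signal and P of the authors' comparison were not used.

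Starts were read as counted from 0, since the shortest interval is then 150 bases. Common intervals that overlapped or touched were joined and represented by the longest, which gave 140081 regions from 217213 intervals. A pseudocount of 0.5 was added to each count before the log2 ratio, and Luchuan counts were scaled by the median ratio of the regions common to both breeds. Genes were the 19533 protein-coding genes with positions in RefSeq's Sscrofa11.1 table, which has no strand, exons or start sites, so exonic, intronic and promoter positions were not told apart. Some listed genes were matched by their older symbols, 3 listed genes (ASPG, ADSS1 and SLC7A5) had no match and SLC6A19 had under 200 reads.

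The genes, lists and rules were chosen with earlier results of these data known. The text names all 6 genes, every region at 2-fold or more, the region with most reads per gene and listed genes past 1.5-fold, and any other item was chosen after its values were seen. Calls and scaling were tested on simulated counts. Alternatives covered the scaling, thresholds, pseudocount, merging, window and gene assignment. No sequence was read and no motif was searched. Intervals came from SciPy 1.17.1, tables from pandas 2.3.3 and NumPy 2.4.6, and plots from Matplotlib 3.10.9, under Python 3.11.15.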

Additional observations from a re-analysis of the deposited data

How the results depend on the processing

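No paired analysis was possible because the counts are pooled per breed and carry no replicate number, and for the same reason no replicate could be left out. Of 130 values recomputed under the alternatives, 106 stayed within counting error or within 1.5 times the count and 24 moved beyond it. The sign differed in 9 of the 130, which were 6 for ASNS and 1 each for GLUL, SLC38A2 and the pathway median. With the clean reads of the libraries as the scale, which lowers every ratio by 0.20, the summed log2 ratio became −0.035 for GLUL and −0.072 for SLC38A2, 0.030 for GOT1, −0.44 for GOT2, −0.35 for ATF4 and −0.19 for the median of the pathway list, and 6 regions in place of 2 were 2-fold higher in Duroc. A scale from the other regions within 1 Mb, added after seeing the data, put GOT1 at 0.055. A window of 2 kb gave 0.42 for GLUL and −0.75 for ASNS, a window of 10 kb 0.32 for GLUL and one of 50 kb 0.25 for SLC38A2. Only regions whose nearest gene was GLUL gave 0.25. Summing every interval without merging gave 0.23 for ASNS. Without the region with most reads ASNS was at −0.65 and GOT2 at −0.41, and the median of the regions was −0.34 for ASNS, 0.54 for GOT1 and −0.57 for GOT2. ASNS thus has no direction that holds over these choices. In place of 3, the regions called higher in Luchuan numbered 7 with the fold lowered to 1.5, 6 with every interval and 10 within 50 kb. In place of 2, those called higher in Duroc numbered 10 with the fold lowered to 1.5 and 4 within 50 kb. The share over all regions was not computed at any changed setting, including the clean-read scale. These counts are therefore not a result about the genes. The causes of these changes were not tested. Genome-wide, 18.8% of regions with 20 to 49 reads were 2-fold or more higher in Luchuan and 6.40% in Duroc, beside 0.18% and 0.81% of regions with 500 reads or more.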

Other observations

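Just outside the 25 kb limit, the stretch above the upper coordinate end of SLC38A2 had more scaled reads in Luchuan. It was looked at after its values had been seen. Between 25 and 50 kb from the gene, 7 regions held 253 Duroc and 423 Luchuan reads, a log2 ratio of 1.3 (1.08 to 1.54) and a fold of 2.47. All 7 counting intervals lay above 0, and 5 of the 7 regions were 2-fold or more higher in Luchuan, beside 6.71% of all regions. The one nearest to the limit, chr5:77152929-77153417, was called in both breeds and held 77 Duroc and 159 Luchuan reads, a log2 ratio of 1.61 (1.21 to 2.02). Of the 7, 5 were called in Luchuan alone, a class whose median log2 ratio was 0.75 over the genome. In that class 33.8% of regions were 2-fold or more higher in Luchuan. Such regions entered the set through the breed where they are high, so the sum and these counts are not evidence of a difference. The next protein-coding gene, the amino acid transporter gene SLC38A4, starts at position 77411610, which is 284 kb from SLC38A2. Over the whole gap beyond 25 kb, 49 regions had a summed log2 ratio of 0.22 (0.16 to 0.28) and 7 were 2-fold or more higher in Luchuan. The 9 regions from 50 to 75 kb had a summed log2 ratio of 0.15 (0.047 to 0.26) and the 6 regions within 25 kb 0.14 (0.050 to 0.23), both lower than in between.

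On the other side of SLC38A2, 4 regions between 25 and 50 kb, toward the transporter gene SLC38A1, held 141 Duroc and 181 Luchuan reads, a log2 ratio of 0.92 (0.60 to 1.25), and 2 of them, both called in Luchuan alone, were 2-fold higher in Luchuan. Near ATF4 at the same distance, chr5:8703295-8703619, whose nearest gene is the calcium channel gene CACNA1I, held 95 Duroc and 15 Luchuan reads, a log2 ratio of −2.06 (−2.99 to −1.31). It was called in Duroc alone, a class with a median of −0.38 and 15.3% of regions 2-fold or more higher in Duroc. This region was picked after its value had been seen. These values come from 1 pooled count per breed, and no difference between boars was tested.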
